A study of Mus musculus with 8 samples.

Results

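The miR-125, miR-99 and miR-100 miRNAs of mouse bone marrow-derived macrophages (BMDMs) are described here as 7 mature miRNAs, chosen by name: mmu-miR-125a-5p, mmu-miR-125b-5p, mmu-miR-99a-5p, mmu-miR-99b-5p, mmu-miR-100-5p, mmu-miR-125a-3p and mmu-miR-99b-3p, written below without the prefix. They are 7 of the 3514 features listed in either of 2 tables of small RNAs, of which 1063 are mature miRNAs, and all 7 are listed in both tables. The 8 libraries came from BMDMs of C57BL/6J mice, either control cells or cells deprived of M-CSF, the growth factor on which these macrophages depend, for 36 h. Total RNA of 2 control and 2 withdrawal samples was sequenced on an Ion Proton. A SOLiD instrument was used for 1 control and 1 withdrawal sample of total RNA and for 1 of each whose RNA had been size-selected to 25 to 40 nt. No transgene or deletion is named for any group, and the methods call the 2 Ion Proton samples of a condition biological replicates without saying whether they are separate cultures or separate mice.

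A miRNA is a short RNA that, loaded into an Argonaute protein, binds mRNAs mainly through the bases near its 5′ end, called the seed, and lowers their translation or stability. miR-125 is the vertebrate counterpart of lin-4, which with let-7 was found as a regulator of developmental timing in worms. Genes of the miR-99/100, let-7 and miR-125 families lie side by side in animal genomes. miR-125a and miR-125b are known as regulators of blood stem cells and of macrophage activation, and miR-99 and miR-100 are known to target the kinase mTOR.

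The mature sequences are shown first because the members differ by very few bases, and this bears on how reads can be assigned to them. They were taken from RefSeq (GRCm38.p6) and were the same as those in the Ion Proton table for all 7 members. Capitals mark the seed, bases 2 to 8 from the 5′ end. miR-351-5p, an X-linked miRNA of the miR-125 family, is added because it has the seed of miR-125a-5p and miR-125b-5p.
mmu-miR-125a-5p: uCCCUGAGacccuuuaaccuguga
mmu-miR-125b-5p: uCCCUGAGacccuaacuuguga
mmu-miR-351-5p: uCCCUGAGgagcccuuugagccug
mmu-miR-99a-5p: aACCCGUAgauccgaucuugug
mmu-miR-100-5p: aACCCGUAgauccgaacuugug
mmu-miR-99b-5p: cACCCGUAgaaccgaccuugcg
mmu-miR-125a-3p: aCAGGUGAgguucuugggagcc
mmu-miR-99b-3p: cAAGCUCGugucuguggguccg

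The 5p members fall into 2 seed groups. miR-125a-5p and miR-125b-5p have the seed CCCUGAG and the same first 13 bases. miR-99a-5p, miR-99b-5p and miR-100-5p have the seed ACCCGUA. miR-99a-5p and miR-100-5p differ at 1 of 22 bases, U16A (the base of miR-99a-5p, the position counted from its 5′ end, then the base of miR-100-5p). miR-99a-5p and miR-99b-5p differ at 4 positions, A1C, U11A, U16C and U21C. Reads that end before position 16 cannot be told apart between miR-99a-5p and miR-100-5p. Among 989 listed mature miRNAs with a sequence, miR-351-5p and miR-6367 were the only others with the seed CCCUGAG, and no further one had ACCCGUA. The seed of miR-125a-3p, CAGGUGA, had no other holder, and that of miR-99b-3p, AAGCUCG, also occurs in miR-99a-3p.

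The members come from 3 clusters, each of a miR-99 or miR-100 gene, a let-7 gene and a miR-125 gene in that order on the plus strand. On chromosome 17, miR-99b-5p (chr17:17830194-17830215) and miR-125a-5p (chr17:17830817-17830840) lie within 647 bp, with let-7e between them. In the GENCODE annotation (release M21) miR-99b lies in an intron of Spaca6, a protein coding gene on the same strand, and miR-125a in an annotated exon of it. On chromosome 16, miR-99a-5p (chr16:77598940-77598961) and the miR-125b-2 copy of miR-125b-5p (chr16:77646279-77646300) lie within 47361 bp, in introns of the non-coding host gene Mir99ahg. On chromosome 9, miR-100-5p (chr9:41531437-41531458) and the miR-125b-1 copy of miR-125b-5p (chr9:41581940-41581961) lie within 50525 bp, in introns of the non-coding transcript 3110039I08Rik. The 2 loci of miR-125b-5p give the same mature sequence, so its reads cannot be divided between chromosomes 9 and 16.

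Depth, as reads on listed features, was 6053130 to 7760142 in the Ion Proton libraries and 4039837 to 12178454 in the SOLiD libraries. Levels are reads per 1000000 such reads, called CPM in the Ion Proton run and RPM in the SOLiD run. They are not divided by length, and the members are 22 or 24 nt long. Of these reads, 39.99% and 41.2% fell on mature miRNAs in Ion Proton control cells, and 29.5% and 29.9% after M-CSF withdrawal. In the SOLiD run they took 82.0% and 41.1% in total RNA and 87.2% and 45.0% in size-selected RNA. A value per 1000000 reads of any miRNA therefore moved with the share of all miRNAs. Such a value cannot tell a fall of miRNAs from a rise of other listed RNAs. In bulk RNA a smaller part of cells holding an RNA and less of it per cell cannot be told apart either. All 8 miRNAs of a macrophage and myeloid list had reads in every library, with a summed level of 60306 to 85412 CPM and 129340 to 500709 RPM. One of these, miR-142a-3p, was close to 0 in the SOLiD libraries (0.112 to 3.71 RPM), against 169 to 252 CPM in the Ion Proton libraries. The SOLiD libraries stood apart in 6 epithelial miRNAs (the miR-200 family, miR-203 and miR-205), with a summed level of 6355 to 9660 RPM against 7.76 to 10.9 CPM in the Ion Proton libraries, where 5 of the 6 are listed. A list of 3 erythroid miRNAs had a summed level of 2417 to 4025 RPM against 5.99 to 13.7 CPM. Nearly all of this SOLiD sum was miR-451a, with 2394 to 3988 RPM. In the same list miR-144-5p had 22.0 to 34.7 RPM against 2.61 to 5.45 CPM. miR-144-3p was at a similar level in the 2 runs, with 1.46 to 2.97 RPM against 1.03 to 2.45 CPM. The single liver miRNA, miR-122-5p, had 52.7 to 89.6 RPM against 0 to 0.165 CPM. Of 3 striated muscle miRNAs none is listed in the Ion Proton table and 2 had a summed level of 224 to 421 RPM. The 7 stromal ones had a summed level of 151 to 208 RPM against 895 to 1262 CPM (4 listed). Nearly all of the Ion Proton sum was miR-10b-5p, with 876 to 1238 CPM against 16.8 to 25.5 RPM. By contrast, miR-199a-3p had 3.68 to 5.57 CPM against 41.5 to 58.9 RPM. The level of miR-143-3p was also higher in every SOLiD library than in any Ion Proton library. miR-196a-5p was at most 1.55 CPM and 1.49 RPM. The part of RNA from other cells in the members' SOLiD values was not tested.

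All 7 miRNAs were lower after M-CSF withdrawal in the Ion Proton run. miR-99b-5p, the most abundant of them, had 1104 and 1181 CPM in the control libraries and 714 and 743 CPM after withdrawal. miR-99b-3p, from the other arm of the same hairpin, had 53.2 and 44.7 CPM in control cells and 28.2 and 28.7 CPM after withdrawal. In both arms the 2 conditions did not overlap. miR-125a-5p had 232.2 and 232.3 CPM in control cells and 130.3 and 118 CPM after withdrawal. miR-125a-3p had 35.8 and 36.8 CPM in control cells and 14.3 and 17.5 CPM after withdrawal. Thus both arms of the miR-99b and miR-125a hairpins of chromosome 17 were low in both withdrawal libraries. miR-99a-5p, of the chromosome 16 cluster, had 202 and 228 CPM in control cells and 108 and 120 CPM after withdrawal. miR-100-5p, of the chromosome 9 cluster, had 144 and 157 CPM in control cells and 78.5 and 80.6 CPM after withdrawal. miR-125b-5p, the least abundant member in control cells, had 26.8 and 35.6 CPM there and 13.2 and 15.9 CPM after withdrawal. No member had a withdrawal library above its lower control library. Such a gap was found for 28% of the 2029 features tested and for 40.2% of the 600 mature miRNAs among them. Of these 600, 186 had a mean of at least 10 CPM, as all members do, and the share among those 186 was not counted.

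**Figure D1:**
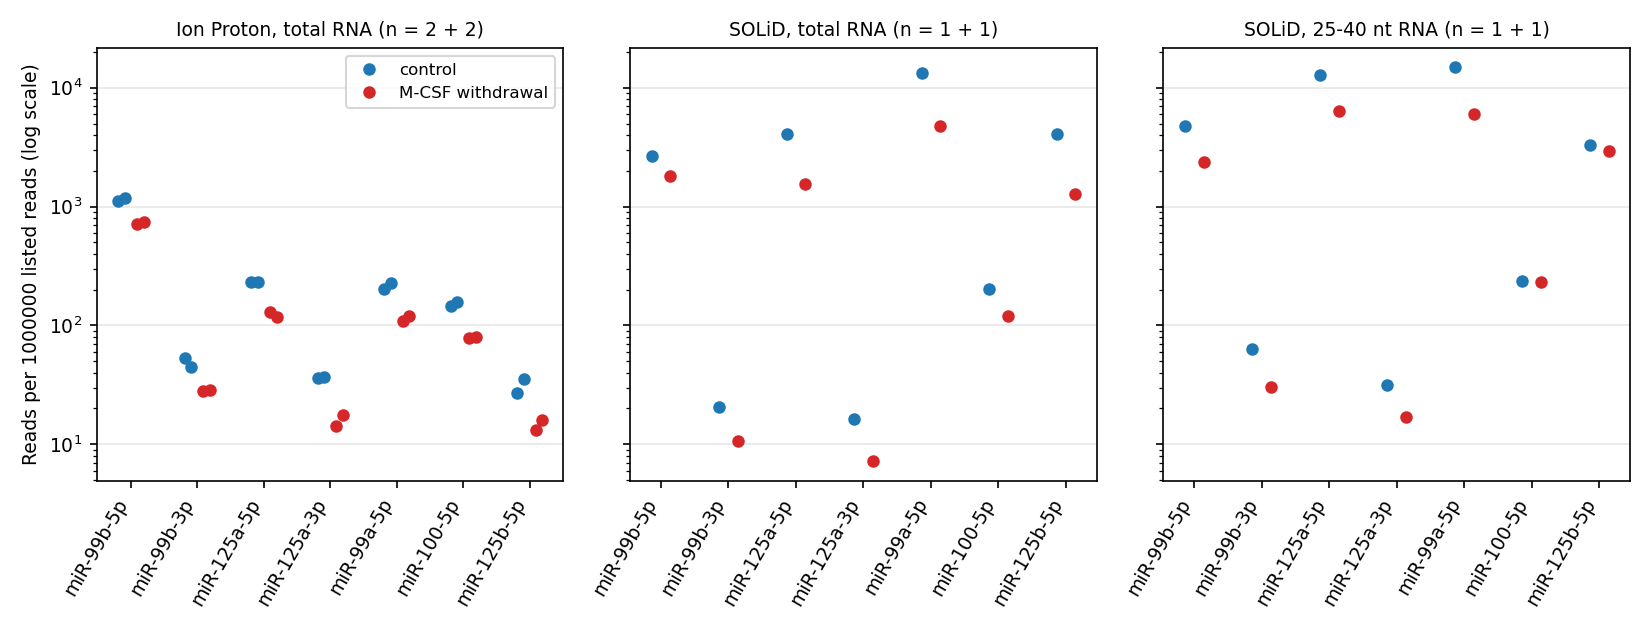
Reads per 1000000 listed reads (log axis) of the 7 members in every library, with each point 1 library, control in blue and M-CSF withdrawal in red, in Ion Proton total RNA (2 + 2 libraries), SOLiD total RNA (1 + 1) and SOLiD RNA of 25 to 40 nt (1 + 1). The red points lie below the blue ones for all members in all 3 panels. They do so by the least for miR-100-5p (238 and 230 RPM) and miR-125b-5p (3322 and 2939 RPM) in size-selected RNA. miR-99b-5p leads in the Ion Proton panel and miR-99a-5p in the panel of SOLiD total RNA. In size-selected RNA miR-99a-5p leads in the control library and miR-125a-5p in the withdrawal library (6424 against 6062 RPM).

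The edgeR quasi-likelihood test over all features of the Ion Proton run (TMM scaling, Benjamini-Hochberg adjustment over 2029 features) called all 7 members lower. It called 8.97% of all features lower, 13.3% of mature miRNAs and, among mature miRNAs of at least 10 CPM, which the members all are, 39.2% (73 of 186). The median log2 fold change was -0.86 over the members, against -0.37 over these 186 miRNAs and 0.08 over all features. The members' changes ran from 1.51-fold lower for miR-99b-5p (log2 -0.60, SE 0.0807, adjusted p = 0.0113) to the largest fall, that of miR-125a-3p (log2 -1.14, SE 0.155, adjusted p = 0.0115). miR-125a-5p was 1.81-fold lower (log2 -0.85, SE 0.0836) with an adjusted p of 0.00445, the lowest of the 7. miR-99a-5p and miR-100-5p, which differ by 1 base, fell by 0.86 and 0.87 on the log2 scale (SE 0.115 and 0.0943), with adjusted p of 0.0110 and 0.00579. miR-125b-5p fell by 1.05 on the same scale, with the widest error (SE 0.214, adjusted p = 0.0289). miR-99b-3p fell by 0.73 (SE 0.132, adjusted p = 0.0213). An exact two-sided permutation test of 2 against 2 libraries cannot go below p = 0.333, which was its value for every member.

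Without the first or the second M-CSF withdrawal library, miR-125b-5p (adjusted p = 0.123 and 0.0652) and miR-99b-3p (adjusted p = 0.118 and 0.0953) were not called by edgeR, and the other 5 members were. These fits called 5.25% and 5.87% of all features lower, against 8.97% with all 4 libraries. The call also depended on the reference. With TMM scaling taken from mature miRNAs alone, the test asks whether a member changed more than miRNAs in general. edgeR then called 0.641% of all features and 1.67% of mature miRNAs (10 of 600) lower. The share among the 186 of at least 10 CPM was not counted for this scaling. The 10 mature miRNAs called lower included 3 of the 7 members. These 3 were miR-100-5p (log2 -0.48, adjusted p = 0.0324), miR-125a-3p (log2 -0.75, adjusted p = 0.0414) and miR-99a-5p (log2 -0.47, adjusted p = 0.0478). miR-125a-5p had log2 -0.46 with an adjusted p of 0.0506, and miR-125b-5p had log2 -0.66 with an adjusted p of 0.0928. miR-99b-5p stood nearest to miRNAs in general, with log2 -0.21 (adjusted p = 0.128), and miR-99b-3p had log2 -0.34 (adjusted p = 0.248).

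**Figure D2:**
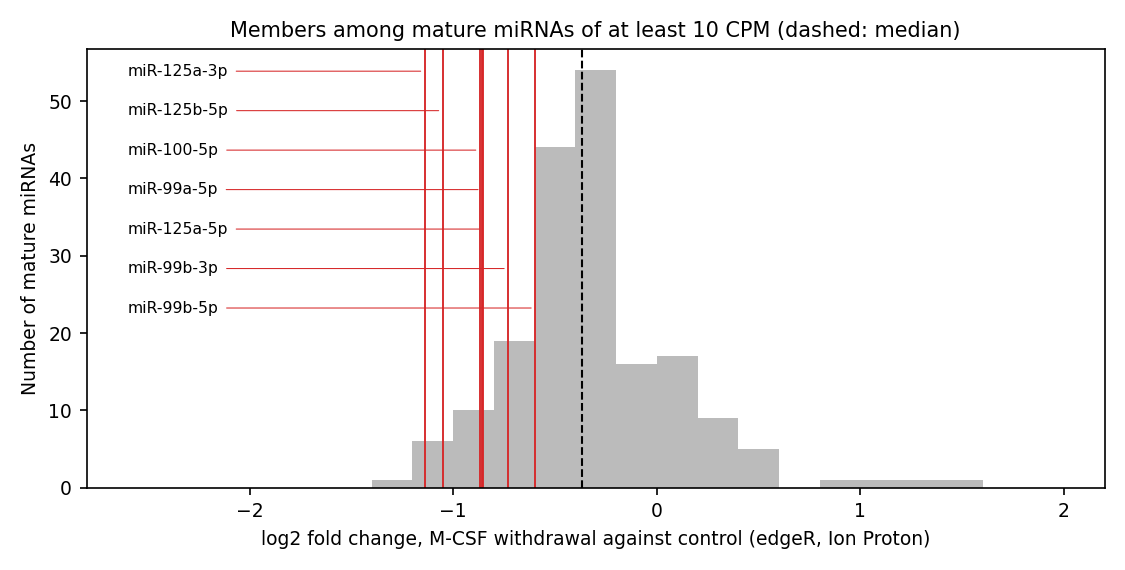
Number of mature miRNAs of at least 10 CPM (grey bars, 186 miRNAs) by their edgeR log2 fold change after M-CSF withdrawal in the Ion Proton run, with a red line for each of the 7 members and a dashed line at the median of -0.37. All red lines lie left of the dashed line, from -1.14 for miR-125a-3p to -0.60 for miR-99b-5p.

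As a share of mature miRNA reads, the members together took 0.457% ± 0.0104 (SD, n = 2) in control cells and 0.372% ± 0.00548 (SD, n = 2) after withdrawal in the Ion Proton run. Both withdrawal libraries were below both control libraries in this sum and in the share of every member. The same was so for 19.3% of the 600 mature miRNAs tested, and the share among the 186 of at least 10 CPM was not counted. For the sum and for each member the exact two-sided permutation p was 0.333, the smallest it can be. miR-99b-5p alone took 0.281% ± 0.00731 (SD, n = 2) of them in control cells, and 0.245% ± 0.00469 (SD, n = 2) after withdrawal. miR-125a-5p took 0.0572% ± 0.00123 (SD, n = 2) and 0.0418% ± 0.00337 (SD, n = 2). The share of miR-99b-5p thus moved by less, as a log2 difference of -0.20, than that of miR-125a-5p, at -0.45.

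The 7 miRNAs were also lower after withdrawal in the single pair of SOLiD libraries of total RNA, for which there is no replicate and no test. The RNA integrity number in the labels was 8.4 for the control and 7.5 for the withdrawal library of this pair (2.7 and 2.6 in the size-selected pair), while in the Ion Proton run it was 8.8 and 8.4 for control and 8.9 and 8.4 for withdrawal, and its part in the SOLiD ratios was not tested. miR-99a-5p, the most abundant member there, had 13259 RPM in control cells and 4799 RPM after withdrawal. miR-125a-5p had 4084 and 1555 RPM, and miR-125b-5p had 4098 and 1269 RPM. These 3 members kept 36.2%, 38.1% and 31.0% of their control level. miR-99b-5p had 2682 RPM in control cells and 1815 RPM after withdrawal, and miR-100-5p had 204 and 121 RPM. They kept 67.7% and 59.3%. The 3p members were rare, with 20.4 and 10.7 RPM for miR-99b-3p and 16.5 and 7.23 RPM for miR-125a-3p.

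On the log2 scale of RPM plus 1, the fall in SOLiD total RNA was largest for miR-125b-5p (-1.69), miR-99a-5p (-1.47) and miR-125a-5p (-1.39). The median over 258 mature miRNAs of at least 10 RPM in both libraries was -0.71, and 92.2% of them were lower, as were 43.4% of all features of that level. miR-100-5p (-0.75) and miR-99b-3p (-0.88) were near that median, and miR-99b-5p (-0.56) lay above it. For miR-125a-3p the value was -1.09, and the 95% Wilson limits of its 2 levels, which cover counting error only, leave a range from -1.62 to -0.55. Relative to miRNA reads alone, 4 of the 7 were lower in this pair, and miR-99b-5p, miR-100-5p and miR-99b-3p had log2 ratios of 0.43, 0.24 and 0.056. Of all these 258 miRNAs, 34.5% had a lower share of miRNA reads after withdrawal.

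In size-selected RNA, miR-125a-5p had 12800 RPM in control cells and 6424 RPM after withdrawal, and miR-99a-5p had 14823 and 6062 RPM. miR-99b-5p had 4780 and 2359 RPM. These 3 members had log2 ratios of -0.99, -1.29 and -1.02, below the median of -0.81 over 262 mature miRNAs, of which 76.3% were lower, as were 29.2% of all features of that level. miR-99b-3p had 63.6 and 30.2 RPM (log2 -1.05), and miR-125a-3p had 31.5 and 16.8 RPM (log2 -0.87). miR-125b-5p (3322 and 2939 RPM) had a log2 ratio of -0.18, and miR-100-5p (238 and 230 RPM) had -0.05, with a range from -0.20 to 0.11 by the Wilson limits. A difference in miR-100-5p was thus not detectable in this pair. Relative to miRNA reads alone, 4 of the 7 were lower in this pair and 39.7% of all 262 miRNAs were, while miR-125b-5p, miR-100-5p and miR-125a-3p had log2 ratios of 0.78, 0.91 and 0.048.

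Beside these ratios stand those of miRNAs of other cell types. Of 27 such miRNAs looked for, lymphoid ones included, 25 are listed in the SOLiD table and 21 had at least 10 RPM in both libraries of each pair. In SOLiD total RNA all 21 were lower after withdrawal, with a median log2 ratio of -0.33. In size-selected RNA 19 were higher, with a median of 0.54 over the 21. The other 2, miR-128-3p of the neural list (-0.66) and miR-181a-5p of the lymphoid list (-1.01), were lower, and miR-181a-5p was also abundant in the Ion Proton libraries (6303 to 9722 CPM). The 6 epithelial miRNAs moved almost as one, between -0.35 and -0.29 in total RNA and between 0.47 and 0.66 in size-selected RNA. In both pairs the log2 ratio of every member was below that of every epithelial miRNA. The part of such RNA in the SOLiD ratios of miR-125b-5p and miR-100-5p was not tested.

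**Figure D3:**
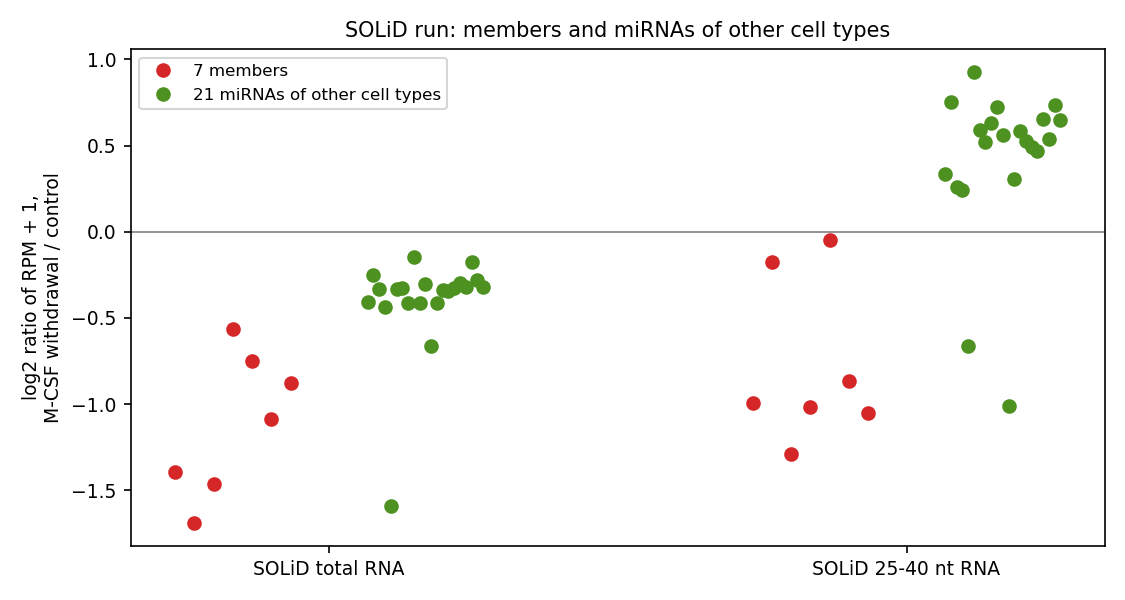
The log2 ratio of RPM + 1 (M-CSF withdrawal over control) of the 7 members (red) and of 21 miRNAs listed for other cell types (green) in the 2 pairs of SOLiD libraries, with each point 1 miRNA. The green points centre on -0.33 in total RNA and on 0.54 in size-selected RNA, with miR-128-3p apart at -1.59 and -0.66 and miR-181a-5p at -0.66 and -1.01, and 2 red points in size-selected RNA, miR-100-5p (-0.05) and miR-125b-5p (-0.18), lie above the other red ones.

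The 3 control and 3 withdrawal libraries of total RNA were then fitted together, with a term for the run (limma on log2 of CPM or RPM plus 1, Benjamini-Hochberg adjustment over 1701 features). This fit called 6 of the 7 members lower, against 5.7% of all features, 9.71% of mature miRNAs and 23.6% (33 of 140) of mature miRNAs of at least 10 CPM or RPM. The members' median was -1.06, against -0.57 for these 140 miRNAs and 0.17 for all features. By limma, miR-125b-5p fell by 1.26 on the log2 scale (SE 0.238, adjusted p = 0.0215). miR-125a-3p fell by 1.13 (SE 0.235, adjusted p = 0.0291), and miR-99a-5p and miR-125a-5p had log2 changes of -1.09 and -1.06 (SE 0.180 and 0.172), both with a limma adjusted p of 0.0146. miR-100-5p fell by 0.86 (SE 0.172, adjusted p = 0.0255) and miR-99b-5p by 0.62 (SE 0.127, adjusted p = 0.0273). miR-99b-3p had -0.80 (SE 0.222) and was not called, with a limma adjusted p of 0.0586.

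The count of 6 depended on the Ion Proton libraries, since leaving out any 1 of these 4 left 0 members called by limma, with adjusted p from 0.0504 to 0.199, and 6 or 7 members at an unadjusted p under 0.05. The loss was general, since these 4 fits called 0 to 4 of all 1701 features lower, against 97 with all libraries. Leaving out either SOLiD library, so that only the Ion Proton libraries inform the change, gave 7 of 7, with 14.3% and 14.2% of all features lower. Per 1000000 miRNA reads, limma called 0 members and 0.118% of all features lower, and 1 member had an unadjusted p under 0.05. Whether the change of a member differed between the runs was not tested, as the SOLiD run has 1 pair.

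**Figure D4:**
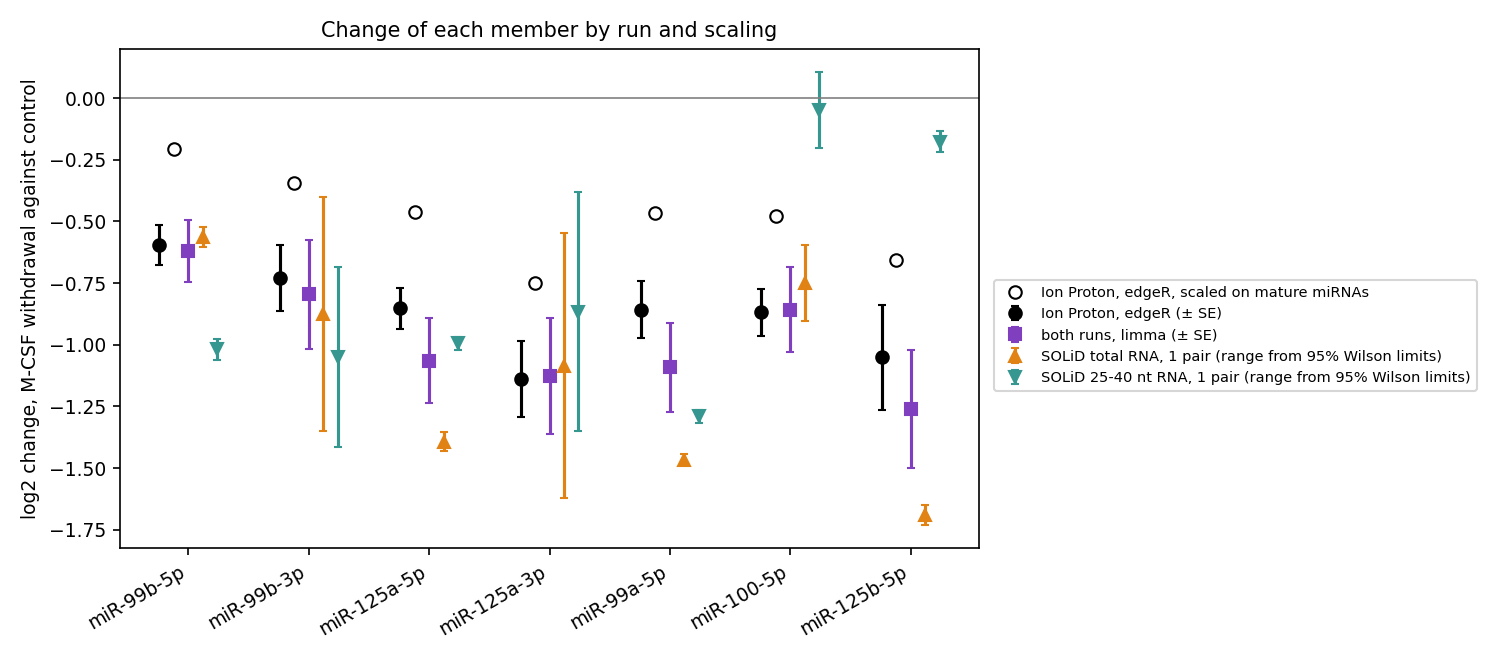
The log2 change of each member after M-CSF withdrawal in the Ion Proton run (filled circles, edgeR ± SE; open circles, edgeR with scaling on mature miRNAs alone), in both runs (squares, limma ± SE) and in the 2 single SOLiD pairs (triangles, with the range left by the 95% Wilson limits of each library). Changes are negative throughout, nearest to 0 for miR-99b-5p among the open circles (-0.21) and for miR-100-5p (-0.05) and miR-125b-5p (-0.18) in size-selected RNA.

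The order of the members differed between the runs. In Ion Proton control libraries it was miR-99b-5p (mean 1143 CPM), miR-125a-5p (232), miR-99a-5p (215), miR-100-5p (151), miR-99b-3p (49.0), miR-125a-3p (36.3) and miR-125b-5p (31.2), and no neighbours in this order overlapped in their 2 libraries. After withdrawal the order was the same, but miR-125a-5p overlapped with miR-99a-5p, and miR-125a-3p with miR-125b-5p. In the SOLiD control library of total RNA the order was miR-99a-5p, miR-125b-5p, miR-125a-5p, miR-99b-5p, miR-100-5p, miR-99b-3p and miR-125a-3p. There, the Wilson intervals of miR-125b-5p and miR-125a-5p overlapped, as did those of the 3p members.

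miR-99b-5p took 61.4% to 66.1% of all member reads in the Ion Proton libraries, and the 4 members from chromosome 17 took 78.1% to 81.6%. In SOLiD total RNA the chromosome 17 members took 27.9% and 35.4%, and miR-99a-5p took 54.4% and 50.1%. In size-selected RNA the chromosome 17 members took 49.0% and 48.9%, with miR-125a-5p at 35.5% and 35.6%. The control level in SOLiD total RNA was 131 times the Ion Proton level for miR-125b-5p, 61.7 times for miR-99a-5p and 17.6 times for miR-125a-5p, but 2.35 times for miR-99b-5p and 1.36 times for miR-100-5p. The 3p members had 0.454 (miR-125a-3p) and 0.418 (miR-99b-3p) times their Ion Proton level. The runs used different ligation kits, amounts of RNA, sequencers and mapping programs, and these cannot be told apart from differences between the cell preparations.

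Ratios of cluster partners within a library do not depend on the total of the library. miR-125a-5p had 6.40 times the reads of miR-125a-3p in Ion Proton control cells and 7.84 times after withdrawal, a log2 difference of 0.29. miR-99b-5p had 23.4 and 25.6 times the reads of miR-99b-3p (log2 difference 0.13), and here the 2 conditions overlapped. In the 4 SOLiD libraries miR-125a-5p had 215 to 406 times the reads of miR-125a-3p, so that the 5p arm led by far more there. The log2 difference of this ratio was -0.21 in the SOLiD pair of total RNA and -0.09 in the size-selected pair, opposite in direction to the Ion Proton run. Within the chromosome 17 cluster, the ratio of miR-125a-5p to miR-99b-5p fell by 0.26 on the log2 scale after withdrawal in the Ion Proton run and that of let-7e-5p to miR-99b-5p had a difference of 0.26, both without overlap of the conditions. In the SOLiD pair of total RNA these differences were -0.83 and -1.19, so that the let-7e ratio had the opposite direction in the 2 runs. Size-selected RNA gave 0.02 and -0.78.

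miR-100-5p to miR-99a-5p, which share all bases but 1, had a ratio in the Ion Proton run of 0.702 in control cells and of 0.697 after withdrawal (log2 difference -0.01, overlapping). In SOLiD total RNA and in size-selected RNA the log2 difference was 0.71 and 1.24. miR-125b-5p to miR-100-5p, partners on chromosome 9, had a log2 difference of -0.18 in the Ion Proton run, with overlap, of -0.94 in SOLiD total RNA and of -0.13 in size-selected RNA. None of these 6 ratios passed the exact two-sided permutation test in the Ion Proton run, where p was 0.333 to 1, and 0.667 to 1 after Benjamini-Hochberg adjustment over the 6. This design cannot go below 0.333.

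**Figure D5:**
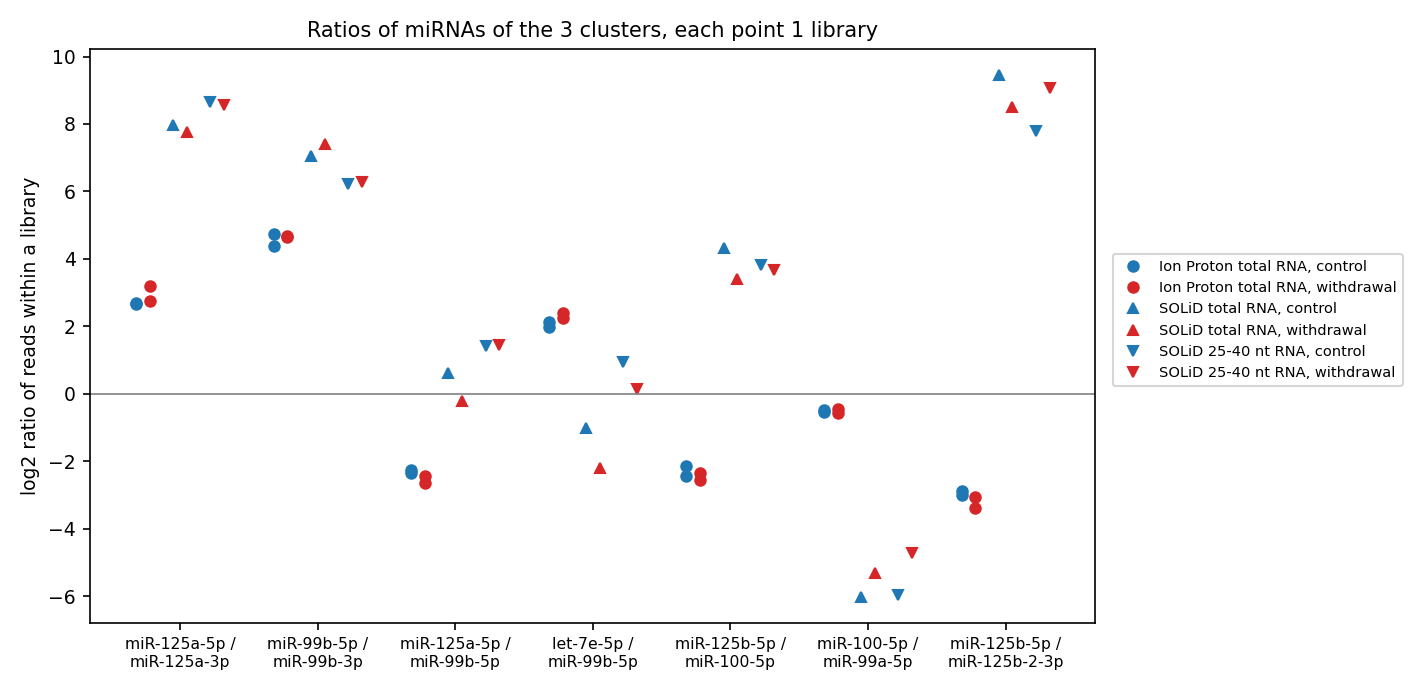
The log2 ratio of reads of 2 miRNAs within each library (each point 1 library; control in blue, withdrawal in red; circles, Ion Proton; triangles, SOLiD total and size-selected RNA) for the 6 ratios of cluster partners and arms and, at the right, miR-125b-5p to miR-125b-2-3p. The arm ratio of miR-125a lies at 2.68 in Ion Proton control cells and above 7 in all SOLiD libraries, and the ratio of miR-125b-5p to miR-125b-2-3p changes sign between the runs.

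The ratio of miR-125b-5p to miR-125b-2-3p, the other arm of the chromosome 16 hairpin, was added after its values were seen. Ion Proton libraries listed fewer reads of miR-125b-5p than of this 3p arm, with a ratio of 0.129 in control cells and 0.107 after withdrawal. miR-125b-2-3p had 215 and 266 CPM in control cells and 138 and 133 CPM after withdrawal in that run. In SOLiD total RNA it had 5.89 and 3.53 RPM, against 4098 and 1269 RPM of miR-125b-5p. The dominant arm of miR-125b listed thus differed between the runs, and the 3p arm of the chromosome 9 copy, miR-125b-1-3p, stayed at 0 to 0.991 CPM or RPM in all 8 libraries.

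Size selection for RNA of 25 to 40 nt, a range above the length of the members, changed their levels unequally. Its level over that of total RNA was 3.13 in control cells and 4.13 after withdrawal for miR-125a-5p, the only member of 24 nt. miR-125b-5p had 0.810 and 2.32, and miR-99a-5p had 1.12 and 1.26. miR-99b-5p had 1.78 and 1.30, and miR-100-5p had 1.16 and 1.90. The 3p members had 1.92 and 2.33 (miR-125a-3p) and 3.11 and 2.83 (miR-99b-3p). The median over mature miRNAs was 0.948 in control cells (282 miRNAs) and 1.35 after withdrawal (245 miRNAs). There is 1 library of each kind, so these ratios have no replicate check.

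Of 10 other mature miRNAs of the 3 clusters, 9 are listed and 8 could be tested in the Ion Proton run. edgeR called 4 of these 8 lower, and the median log2 change of the 8 was -0.38. The 4 called are the only ones of the 8 with at least 10 CPM. Of all features 8.97% were called lower, and of mature miRNAs of at least 10 CPM 39.2%, with a median of -0.37. let-7c-5p, from chromosomes 16 and 15, had 27143 and 26688 CPM in control cells and 18542 and 17526 CPM after withdrawal (log2 -0.53, adjusted p = 0.00471). miR-125b-2-3p had log2 -0.77 (adjusted p = 0.0175). let-7e-5p, which lies between miR-99b and miR-125a, had 4815 and 4666 CPM in control cells and 3756 and 3509 CPM after withdrawal (log2 -0.33, adjusted p = 0.0245). let-7a-5p, which has further loci outside chromosome 9, had log2 -0.27 (adjusted p = 0.0214). With scaling on mature miRNAs alone none of the 4 was called, and let-7e-5p and let-7a-5p had 0.058 and 0.12. In both runs together, limma called 1 of the 7 that could be tested, let-7c-5p (log2 -0.78, adjusted p = 0.0252). That fit called 5.7% of all features lower. let-7e-5p fell from 1334 to 395 RPM in the single SOLiD pair of total RNA and from 9144 to 2624 RPM in the size-selected pair.

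miR-351-5p, the third lin-4 family miRNA by its seed, had 425 and 440 CPM in Ion Proton control cells and 193 and 176 CPM after withdrawal. The 2 conditions did not overlap. It was 2.26-fold lower by edgeR (log2 -1.18, SE 0.0828, adjusted p = 0.00249) and had log2 -1.30 in both runs by limma (adjusted p = 0.00732). It was called with scaling on mature miRNAs alone too (log2 -0.79, edgeR adjusted p = 0.00896). In SOLiD total RNA it had 301 and 111 RPM, and in size-selected RNA 462 and 112 RPM. miR-6367, the remaining miRNA with that seed, is listed only in the SOLiD table, at 0.246 to 2.58 RPM.

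The miRNAs whose levels over the 8 libraries most resembled each member were sought among 139 other mature miRNAs of at least 10 CPM or RPM in both runs, by the root mean square difference of log2 values centred within each run and RNA type. Libraries of a set share their run and centring, so the measure is a description. miR-99b-5p was closest to miR-16-5p (0.0283), miR-181a-5p (0.0496) and miR-674-5p (0.0579), against a median of 0.243 over the 139. miR-99b-3p was closest to let-7b-5p (0.0777), followed by miR-324-5p and miR-16-5p (0.110 each). miR-125a-5p was closest to miR-674-3p (0.0782), miR-221-5p (0.101) and miR-324-5p (0.111). The nearest miRNA thus differed between these 3 members of chromosome 17.

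miR-99a-5p was closest to miR-221-5p (0.100), then to miR-125a-5p (0.114) and miR-222-5p (0.124). miR-125a-3p was closest to miR-125a-5p (0.161), miR-99a-5p (0.173) and miR-151-5p (0.181). For these the list included other members. miR-100-5p was closest to miR-222-3p (0.0880), let-7d-3p (0.144) and miR-30a-5p (0.172), and not to miR-99a-5p. miR-125b-5p had no close neighbour, with miR-361-3p at 0.235, miR-125a-3p at 0.250 and miR-151-5p at 0.256, against a median of 0.427.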

How the data were processed

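Small RNA libraries of mouse BMDMs were sequenced on 2 platforms. Ion Proton reads were trimmed by the authors with cutadapt 1.2.1, and those of at least 15 bases were mapped to mm10 with Bowtie2 2.2.4 in local mode, keeping up to 10 places for each. Raw read counts per feature (miRBase 21 and Ensembl 75) were deposited. SOLiD reads were mapped by the authors with LifeScope and deposited as reads per 1000000 listed reads (RPM), written with decimal commas. Every SOLiD value above 0 (10652) was within 0.000343 of a whole number of reads, so reads were recovered. The methods and labels differ on the input and read length of the SOLiD run, and the Ion Proton extract is called small RNA in the labels.

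Counts were tested with edgeR 4.0.16 (TMM, quasi-likelihood) over features whose counts summed to 5 or more. limma 3.58.1 with an intensity trend and a run term was fitted to log2(CPM or RPM + 1) of the 6 total RNA libraries. Features with adjusted p under 0.05 were called. DESeq2 1.42.0 was an alternative. R 4.3.3, Python 3.11.15, pandas 2.3.3, numpy 2.4.6, scipy 1.17.1 and matplotlib 3.10.9 were used. Both fits were tested on simulated data whose changes were larger than those of the members, with rare features left out. These simulations do not show how well changes of the members' size are recovered. Wilson intervals (95%) cover counting error only. Replicates were checked for duplicated libraries, and none was found. Named miRNAs were the members, their cluster mates, miRNAs with a member's seed and the 3 nearest in pattern. The members and lists were chosen with earlier results of these data known.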

Additional observations from a re-analysis of the deposited data

How the results depend on the processing

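In the Ion Proton run, the count of members called lower by edgeR was 7 with DESeq2 size factors, library totals, minimum summed counts of 10 or 1 and the DESeq2 test, 3 with TMM over mature miRNAs alone, and 5 to 7 when 1 library was left out (5 without either withdrawal library), with 100 to 248 of all features lower. TMM over mature miRNAs turned let-7e-5p to 0.058 and let-7a-5p to 0.12 on the log2 scale, which follows from the other reference. It called 412 features higher and 13 lower, against 318 and 182 in the reported fit, DESeq2 size factors gave 299 and 255, and the DESeq2 test 236 and 241.

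In both runs, 6 members were called lower by limma with pseudocounts of 0.5 and 5 and minimum summed counts of 10 and 1, and 7 with centring on library medians or voom. Per 1000000 miRNA reads 0 were called, miR-99b-5p turned to 0.013 and let-7a-5p to 0.084, and when 1 library was left out the count was 0 to 7, with 0 to 244 of all features lower. All features called were 198 higher and 97 lower in the reported fit, 300 and 2 per 1000000 miRNA reads, 178 and 230 with centring and 219 and 178 with voom.

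Whether same-numbered Ion Proton libraries are pairs is not stated. Their deviations from the condition means had a correlation of -0.0404, which cannot decide it with 2 libraries per condition. With the replicate number as a block, edgeR called 6 members (miR-99b-3p had an adjusted p of 0.0572) and limma called 0, with 7 at an unadjusted p under 0.05. The block left 235 features higher and 126 lower in the Ion Proton run and 28 and 1 in both runs.

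Per 1000000 miRNA reads, the count of members lower was 4 in SOLiD total RNA and 4 in size-selected RNA. In total RNA miR-99b-5p, miR-100-5p and miR-99b-3p turned to 0.43, 0.24 and 0.056. In size-selected RNA miR-125b-5p, miR-100-5p and miR-125a-3p turned to 0.78, 0.91 and 0.048. The summed share of the members, as a log2 change, was -0.30 of miRNA reads, -0.32 to -0.27 without 1 library, and -0.75 of all listed reads. Without 1 library the log2 difference of miR-99b-5p to miR-99b-3p ran from -0.047 to 0.30 and that of miR-100-5p to miR-99a-5p from -0.068 to 0.047, while the other ratios kept their direction. The cause of these shifts was not tested beyond the change of reference. Depth limits the 3p members in the SOLiD run and miR-125b-5p in the Ion Proton run most.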
